A study of Mus musculus with 6 samples.

Results

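The 10 transcripts followed here are ones that other leukocytes are known for, measured in RNA from sorted mouse lung group 2 innate lymphoid cells (ILC2s): Lyz2, C1qb, C1qc, Csf1r, Adgre1 and Cd68 for macrophages, Ly6g for neutrophils, Cma1 and Cpa3 for mast cells and Mcpt8 for basophils. They were chosen by name, with earlier results of these data known, as a measure of what other cells a sort may carry. They are 10 of the 18057 genes in the deposited table. The 6 libraries are bulk RNA from 2 groups of 3. The control group has the genotype Il7rcre, called WT in the sample titles, and the Piezo1_KO group has the genotype Il7rcrePiezo1flx, in which a floxed Piezo1 allele meets the same Cre driver. Piezo1 encodes a cation channel opened by membrane stretch, and Il7r, which drives the Cre, is transcribed in lymphoid progenitors and in ILC2s. All mice of both groups had been given 1 µg of IL-33 by the nose 3 times, and all cells then spent 24 h in culture with 10 ng/mL of IL-2 and the same amount of IL-7. The sorting gate, the ages of the mice and whether each library is 1 animal or a pool are not stated in the labels, so the p-values here reflect variation among these 6 libraries, part or all of which may be technical.

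Macrophages, mast cells, basophils and neutrophils arise from myeloid progenitors and are defined by gene sets that lymphocytes mostly lack. Macrophages make lysozyme and the complement starter C1q and depend on the receptor for macrophage colony-stimulating factor. Mast cells store proteases such as chymase, tryptase and carboxypeptidase A3 in granules, bound to heparin, and release them when IgE receptors are cross-linked. Mast cells and basophils carry the IL-33 receptor, as ILC2s do, but ILC2s are defined by the lack of lineage markers, and a lung ILC2 sort is commonly gated against these other lineages.

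The depth was 13059046 to 33459904 estimated counts per library, lowest in control replicate 3 and highest in control replicate 2. One count was worth 0.0299 to 0.0749 CPM (counts scaled to library size with TMM factors). A transcript with 0 counts can still be present at up to the level of 3 counts, which was 0.225 CPM in control replicate 3 and 0.0896 CPM in control replicate 2, counting error only. Piezo1, the targeted gene, was at 160.0 to 278 CPM in control against 109 to 150.0 CPM in Piezo1_KO, without overlap but short of the threshold (adjusted p = 0.112 over all tested genes, edgeR). The counts are per gene, so reads from inside and outside the floxed part cannot be told apart. Of 19 ILC2 identity genes all were in the table and tested, and the highest per length was Il5, the eosinophil growth factor, at 2992 CPM per kb of exon.

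All 10 transcripts were scarce beside the genes of the sorted cell. On the scale of CPM per kb of exon, averaged over the 6 libraries, they ranged from 0.0381 for C1qc to 3.10 for Cma1, with a median of 0.398, while the 19 ILC2 genes had a median of 106. Gata3, the lineage transcription factor, was at 217 CPM per kb and Il1rl1, the IL-33 receptor gene, at 123 CPM per kb. Among 17579 genes with a length, the 10 transcripts ranked between place 8229 and place 16729. Cma1, Cd68 (2.45 CPM per kb) and Cpa3 (2.37 CPM per kb) led the order, followed by Lyz2 (1.45 CPM per kb) and Mcpt8 (0.627 CPM per kb). The remaining 5 lay between 0.0381 and 0.169 CPM per kb, in the order Ly6g, Adgre1, C1qb, Csf1r and C1qc. The ranges over the 6 libraries overlapped in 8 of the 9 pairs of neighbours in this order, all but Mcpt8 and Ly6g.

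**Figure D1:**
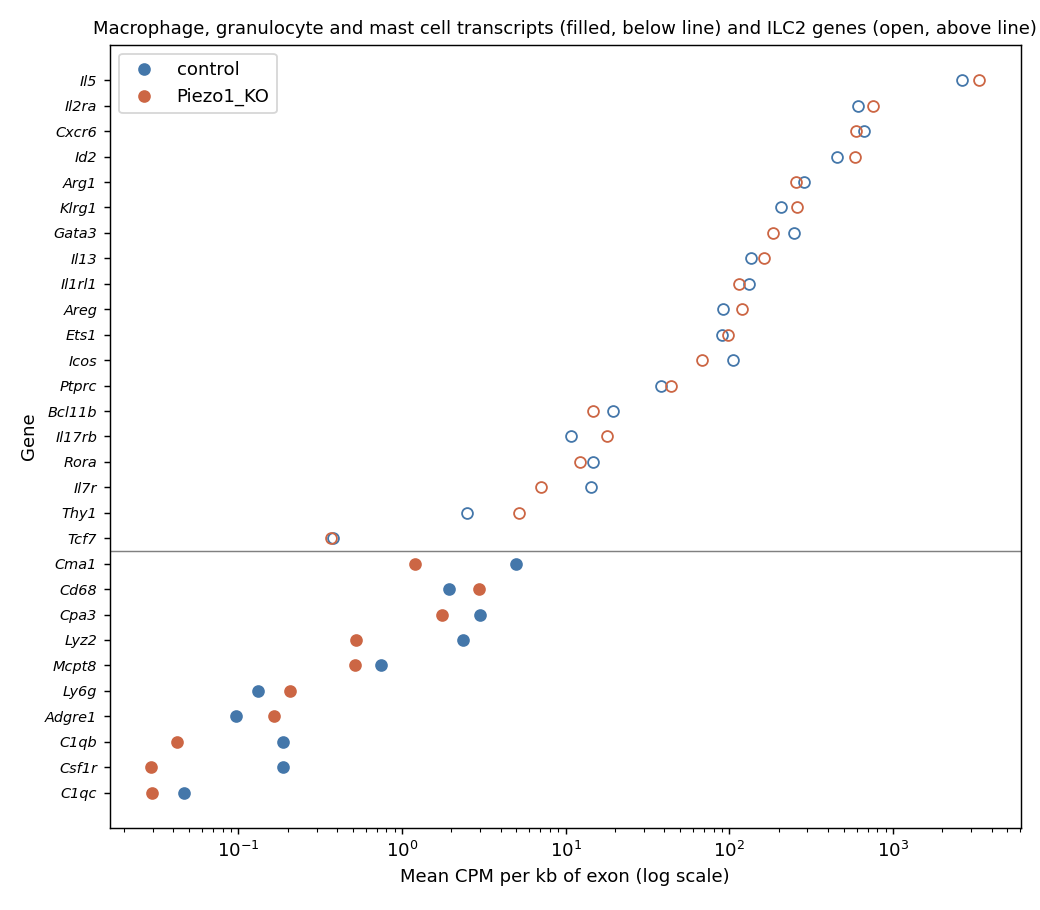
Mean CPM per kb of exon (log axis) in control (blue) and Piezo1_KO (orange) for the 10 transcripts (filled points, below the line) and the 19 ILC2 identity genes (open points, above the line). Of the ILC2 genes, Tcf7 (0.376 and 0.368 CPM per kb in control and Piezo1_KO) and the control point of Thy1 (2.49 CPM per kb) lie among the 10 transcripts, and Il5 lies highest.

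Summed over the 10 genes, the level was 16.9, 14.99 and 22.3 CPM in control replicates 1, 2 and 3, against 7.82, 12.5 and 9.35 CPM in the same order in Piezo1_KO. The control libraries were all above the Piezo1_KO libraries in this sum. In raw numbers this was 297 to 502 estimated counts per control library and 185 to 363 per Piezo1_KO library. The 10 genes were chosen with earlier results of these data known, so this sum and those that follow are descriptions, not tests. The 3 mast cell and basophil transcripts gave 12.1, 8.12 and 11.8 CPM in control against 3.93, 5.15 and 4.40 CPM in Piezo1_KO, again without overlap. The 6 macrophage transcripts gave 4.53, 6.75 and 10.4 CPM in control against 3.80, 7.15 and 4.70 CPM in Piezo1_KO, and these groups overlapped. Without Cd68, the 1 tested macrophage transcript with the opposite sign, the other 5 gave 2.62, 3.91 and 7.87 CPM in control against 0.719, 2.97 and 0.812 CPM in Piezo1_KO, which also overlapped. The means of these 5 were 4.80 ± 2.74 and 1.50 ± 1.28 CPM (SD, n = 3), and the choice to leave Cd68 out was made with its values known. With Cd68 the means were 7.23 ± 2.975 and 5.22 ± 1.73 CPM (SD, n = 3). Adgre1, which was not tested and was kept, had 26 pooled counts in control and 43 in Piezo1_KO. In bulk RNA, fewer cells of a type and less RNA per cell cannot be told apart, and neither can a few other cells and a low level in the ILC2s themselves.

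**Figure D2:**
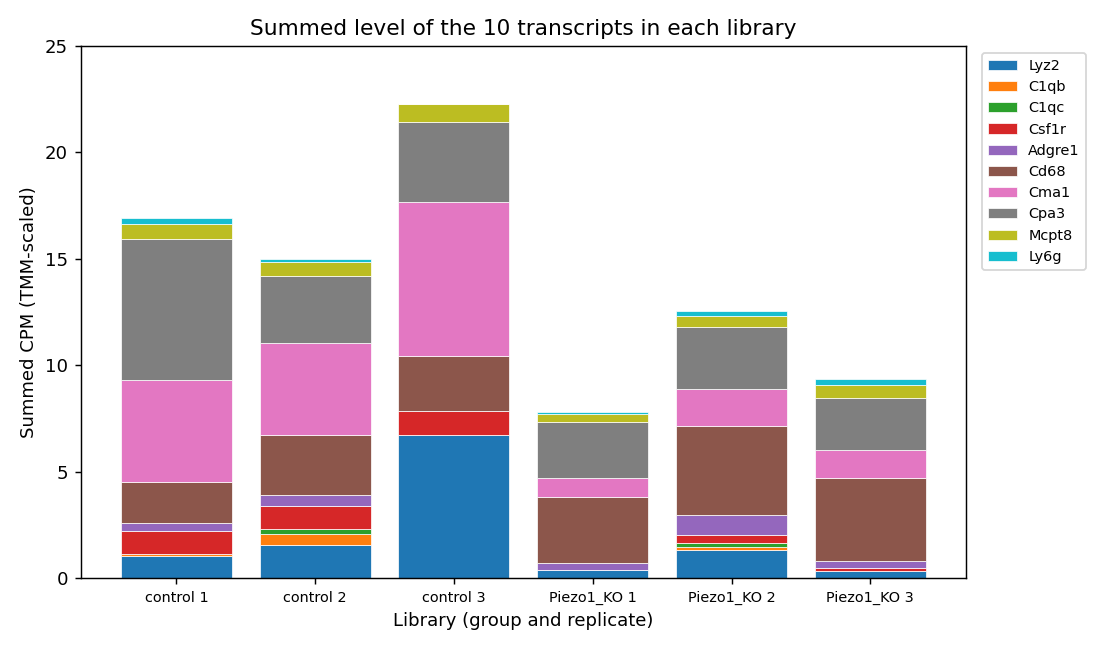
TMM-scaled CPM of the 10 transcripts stacked for each of the 6 libraries, with 1 colour per gene. The control bars reach 14.99 to 22.3 CPM and the Piezo1_KO bars 7.82 to 12.5 CPM, and Lyz2 fills a large part of the control replicate 3 bar.

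Across all genes, 214 of 14149 tested passed an adjusted p of 0.05 in the comparison of Piezo1_KO with control, or 1.51%, and 0.509% of the tested genes passed as lower. Of the 10 transcripts, 6 had enough counts to be tested and 4 (C1qb, C1qc, Adgre1 and Ly6g) did not. Cma1 was the 1 tested transcript that fell, and 0 rose. At an unadjusted p under 0.05, which 13.2% of all tested genes reached (6.91% as lower and 6.3% as higher), there were 4 lower and 0 higher. DESeq2, which called 4.2% of the tested genes, called 1 lower (Cma1) and 0 higher. The 2 groups did not overlap for 5 of the 10, of which 4 were lower and 1, Cd68, was higher in Piezo1_KO. Among all genes in the table, 19.1% had no overlap, with 9.09% of the genes lower in Piezo1_KO and 10.0% higher. A filter on counts keeps a scarce gene mostly where 1 group is high, so the tested 6 are not a fair sample of the 10, and the same holds for the scarce genes of the lists given later.

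Cma1 encodes mast cell chymase, a secreted serine protease that cuts angiotensin I and matrix proteins. It was at 4.78, 4.30 and 7.27 CPM in control replicates 1, 2 and 3 (95, 144 and 97 counts) and at 0.888, 1.73 and 1.32 CPM in Piezo1_KO, in the same order (21, 50 and 31 counts). Every control library was above every Piezo1_KO library, and the nearest values were 4.30 and 1.73 CPM. The means were 5.45 ± 1.59 and 1.31 ± 0.42 CPM (SD, n = 3), with a log2 fold change of −2.03 ± 0.35 (SE), or 4.10-fold lower (adjusted p = 0.0312, edgeR quasi-likelihood test). With single libraries left out the log2 fold change stayed between −2.29 and −1.78, but the call was lost without control replicate 1 (adjusted p = 0.132, edgeR) or 3 (0.0508) and without Piezo1_KO replicate 1 (0.142), 2 (0.112) or 3 (0.149). Cma1 has close paralogs in its locus, so how reads were divided within the family is uncertain.

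Cpa3 (chr3:20215620-20242181) encodes carboxypeptidase A3, the granule exopeptidase of mast cells, which basophils also express. It was at 6.64, 3.14 and 3.75 CPM in control against 2.66, 2.90 and 2.43 CPM in Piezo1_KO, in replicate order. Control replicate 1 stood highest, and the other control libraries lay just above the Piezo1_KO range. The means were 4.51 ± 1.87 and 2.67 ± 0.234 CPM (SD, n = 3), a log2 fold change of −0.75 ± 0.33 that did not pass (adjusted p = 0.375, edgeR), and −0.36 without control replicate 1. The 2 mast cell transcripts did not keep 1 ratio: there were 0.720, 1.37 and 1.94 counts of Cma1 per count of Cpa3 in control replicates 1, 2 and 3, whereas Piezo1_KO had 0.333, 0.595 and 0.544. The ratio was lower in each Piezo1_KO library than in each control library.

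The 250 bases before the start of Cma1 and Cpa3 are given because these are the mast cell transcripts among the 10, and both were lower in Piezo1_KO without overlap. They are RefSeq windows on GRCm38.p6, both on the minus strand, at chr14:55944676-55944925 for Cma1 and chr3:20242182-20242431 for Cpa3. Capitals mark the letters GATAA on either strand (TTATC when read on the printed strand), the core that GATA factors bind, and CANNTG, the E-box core, whose pattern reads the same on both strands.
Cma1: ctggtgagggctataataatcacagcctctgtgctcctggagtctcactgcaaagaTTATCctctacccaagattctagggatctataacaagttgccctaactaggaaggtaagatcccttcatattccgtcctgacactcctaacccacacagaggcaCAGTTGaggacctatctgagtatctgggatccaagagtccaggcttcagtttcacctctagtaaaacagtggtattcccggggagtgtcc
Cpa3: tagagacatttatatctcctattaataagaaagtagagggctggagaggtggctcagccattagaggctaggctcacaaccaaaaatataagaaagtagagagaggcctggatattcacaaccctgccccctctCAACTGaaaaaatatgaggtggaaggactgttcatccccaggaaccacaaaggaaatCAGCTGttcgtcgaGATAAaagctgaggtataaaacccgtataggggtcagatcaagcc
Each window held 1 GATAA match, and there was 1 CANNTG match before Cma1 and 2 before Cpa3, with no match overlapping another. Of 32817 promoter windows of the same length, 22.6% held GATAA, 66.2% held CANNTG and 15.9% held both. A match is a string of letters, not a measured binding site.

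Mcpt8, mouse mast cell protease 8, is a granule protease known as a basophil marker. It was at 0.704, 0.687 and 0.825 CPM in control (14, 23 and 11 counts) and 0.380, 0.518 and 0.641 CPM in Piezo1_KO (9, 15 and 15 counts). The groups did not overlap but lay close together. The log2 fold change was −0.51 ± 0.44 (adjusted p = 0.688, edgeR). Pooled over libraries, 48 control counts gave 0.720 CPM (95% exact Poisson interval 0.531 to 0.954) and 39 Piezo1_KO counts gave 0.513 CPM (0.365 to 0.701), intervals that cover counting error only and overlap.

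Cma1 and Mcpt8 lie in the chymase locus of chromosome 14, a cluster of related serine protease genes. In mm10, as for all positions given, Cma1 is at chr14:55941451-55944675 on the minus strand and Mcpt8 at chr14:56082166-56085273, 137 kb away, while Cpa3 is on chromosome 3. Of 15 genes listed for this locus, 5 were in the table and 3 were tested. Cma1 fell and Gzmb, the cytotoxic protease granzyme B, 314 kb from Cma1, rose from 92.2 ± 16.1 to 220.5 ± 27.5 CPM (SD, n = 3, log2 fold change 1.26 ± 0.15, adjusted p = 0.00757, edgeR). The Gzmb call was lost without control replicate 1 (adjusted p = 0.0777, edgeR) and without Piezo1_KO replicate 1 (0.0505) or 2 (0.0549), with the log2 fold change between 1.15 and 1.39 in the 12 alternative fits. Ctsg, the neutrophil and mast cell protease cathepsin G, was not tested, with 4, 31 and 7 counts in control and 3, 3 and 1 counts in Piezo1_KO.

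Of 19 listed mast cell genes, 12 were in the table and 7 were tested, of which Cma1 fell, 0 rose and 6 did not pass. At an unadjusted p under 0.05 there were 5 lower and 0 higher, where 6.91% of all tested genes were lower, and DESeq2 called 3 lower (Cma1, Tpsb2 and Kit) and 0 higher. Of the 7, 6 had a negative log2 fold change, and their median was −0.72, against 0.018 over all tested genes. Tpsb2 and Tpsab1, which encode mast cell tryptases and were singled out after their values were seen, were lower too. Tpsb2 was at 4.53, 3.94 and 1.27 CPM in control against 0.380, 0.518 and 0.683 CPM in Piezo1_KO, a log2 fold change of −2.63 ± 0.52 just short of the threshold (adjusted p = 0.0566, edgeR), which it passed in DESeq2, with no filter (0.0478) and without control replicate 3 (0.00965). In the other 9 of 12 fits it did not pass, with adjusted p of 0.166 to 0.287 without control replicate 1 or any Piezo1_KO replicate and 0.240 in the fit blocked on replicate number (edgeR). With 9, 15 and 16 counts in Piezo1_KO, Tpsb2 would not have passed the count filter on those libraries alone. It passed through control, where it is high, so its sign is no separate finding, also within the counts of the list. Tpsab1 had 6, 12 and 6 counts in control and 0 in every Piezo1_KO library, which is 9.12-fold lower if the Piezo1_KO group is set to 3 counts in all. This value takes the 24 control counts as exact and leaves out the spread between libraries, so it is not a strict lower bound.

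Of the other 4 tested mast cell genes 3 (Kit, Hpgds and Mitf) had a negative log2 fold change and none passed in edgeR. Kit, the stem cell factor receptor, had the highest level of the list, with 203 ± 35.9 CPM in control against 126 ± 7.45 CPM in Piezo1_KO (SD, n = 3) and a log2 fold change of −0.69 ± 0.14 that did not pass (adjusted p = 0.0577, edgeR). Hpgds, prostaglandin D2 synthase, was at 7.66 ± 2.20 and 4.62 ± 0.336 CPM (log2 fold change −0.72 ± 0.24, adjusted p = 0.242, edgeR). Per length, Kit was at 18.5 CPM per kb, Cma1 at 3.10 CPM per kb and Hpgds at 0.955 CPM per kb over the 6 libraries. Which cells the Kit and Hpgds counts came from was not tested. Fcer1a, the IgE-binding chain of the mast cell and basophil receptor, had 9, 6 and 2 counts in control and 0, 3 and 1 in Piezo1_KO and was not tested. Gata2, a mast cell transcription factor, had 8, 46 and 0 counts in control and 0, 1 and 4 in Piezo1_KO, and the groups overlapped. Tpsg1, a further tryptase, had 1, 14 and 1 counts in control and 1, 1 and 0 in Piezo1_KO. Most control counts of both came from replicate 2. Both were untested and named after their values were seen. Hdc, the enzyme that makes histamine, was the 1 tested gene of the list with a positive sign (log2 fold change 0.93 ± 0.66, adjusted p = 0.613, edgeR). With 3, 25 and 8 counts in control, Hdc would not have passed the count filter on control libraries alone. Of 7 listed basophil genes 5 were in the table and 3 were tested, with 0 past the threshold, 0 at an unadjusted p under 0.05 and 0 in DESeq2. Their highest levels were those of Cd200r3 (0.945 CPM over the 6 libraries) and Hdc (0.731 CPM). The mast cell list, Kit included, summed to 188 to 255 CPM in control against 133 to 146 CPM in Piezo1_KO. Most of this was Kit, at 162 to 228 CPM in control and 122 to 135 CPM in Piezo1_KO. In control, the proteases Cma1, Cpa3, Tpsb2, Tpsab1, Mcpt2 and Tpsg1 summed to 12.2 to 16.55 CPM. In Piezo1_KO these proteases summed to 3.97 to 5.32 CPM.

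**Figure D3:**
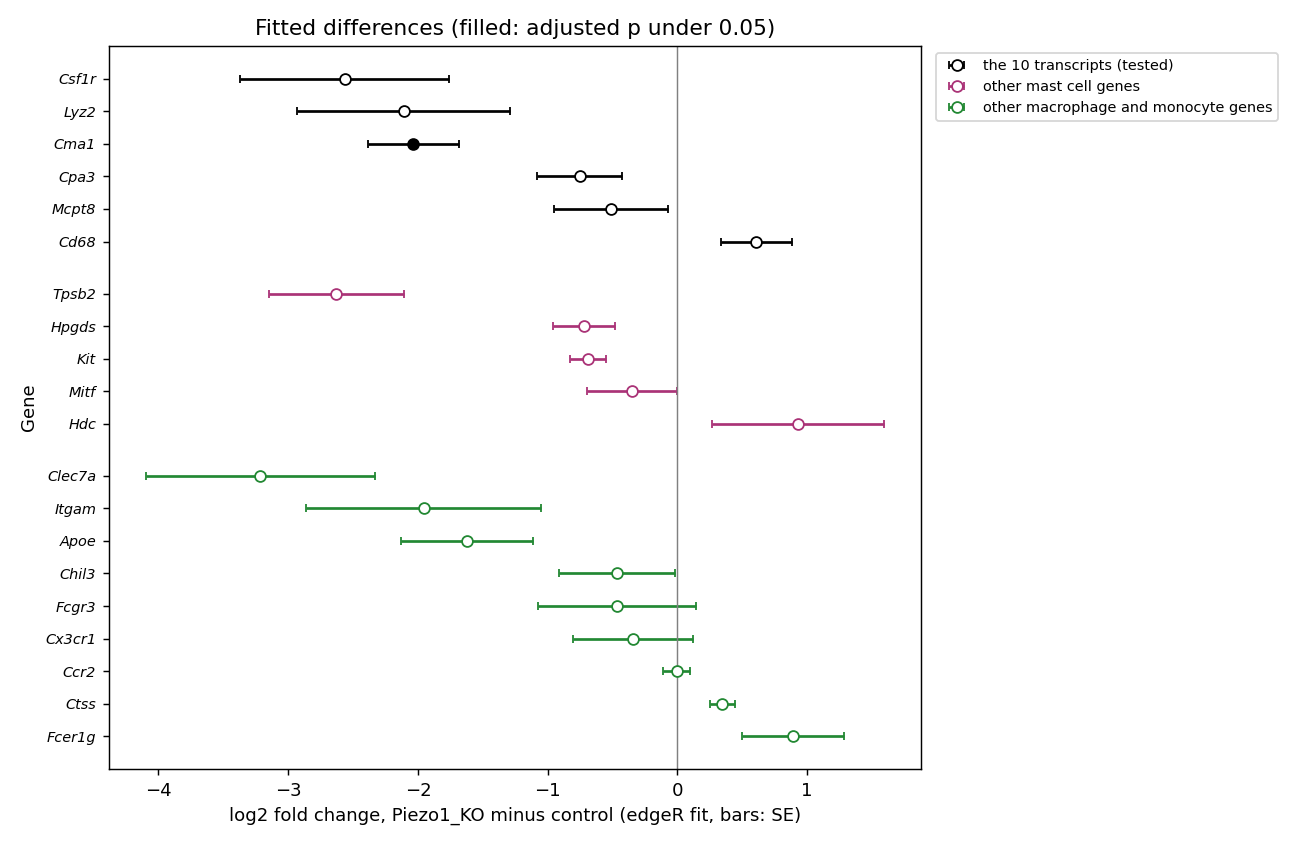
Fitted log2 fold change of Piezo1_KO minus control with its SE for the 6 tested transcripts (black), the other tested mast cell genes (purple) and the other tested macrophage and monocyte genes (green). Cma1, the single filled point, passed the threshold, and Cd68 is the one black point to the right of 0.

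Lyz2 (chr10:117277331-117282321) encodes lysozyme M, the bacteriolytic enzyme of macrophages and granulocytes. It was at 1.06, 1.55 and 6.75 CPM in control replicates 1, 2 and 3 (21, 52 and 90 counts) and 0.380, 1.35 and 0.342 CPM in Piezo1_KO (9, 39 and 8 counts). Control replicate 3 stood far above the rest, and Piezo1_KO replicate 2 lay within the control range, so the groups overlapped. The means were 3.12 ± 3.15 and 0.690 ± 0.570 CPM (SD, n = 3), and the log2 fold change of −2.11 ± 0.82 did not pass (adjusted p = 0.317, edgeR). It was −0.90 without control replicate 3 and −3.06 without Piezo1_KO replicate 2.

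Cd68 (chr11:69664213-69666153), a lysosomal glycoprotein abundant in macrophages, had the opposite sign. It was at 1.91, 2.84 and 2.55 CPM in control (38, 95 and 34 counts) and 3.09, 4.18 and 3.89 CPM in Piezo1_KO (73, 121 and 91 counts), with each Piezo1_KO library above each control library. The means were 2.43 ± 0.474 and 3.72 ± 0.567 CPM (SD, n = 3), and the log2 fold change of 0.61 ± 0.27 did not pass (adjusted p = 0.397, edgeR). Counts of Lyz2 per count of Cd68 were 0.553, 0.547 and 2.65 in control and 0.123, 0.322 and 0.0879 in Piezo1_KO. The library richest in Lyz2, control replicate 3, was thus not the richest in Cd68.

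Csf1r (chr18:61100598-61132149), the receptor for macrophage colony-stimulating factor, was at 1.06, 1.05 and 1.12 CPM in control (21, 35 and 15 counts) and 0, 0.380 and 0.128 CPM in Piezo1_KO (0, 11 and 3 counts). The 3 control libraries lay close together and above all Piezo1_KO libraries. The log2 fold change was −2.56 ± 0.81, the most negative of the 6 tested transcripts, and did not pass (adjusted p = 0.209, edgeR). It was −3.96 without Piezo1_KO replicate 2, which holds 11 of the 14 Piezo1_KO counts, and −2.04 without Piezo1_KO replicate 1. Pooled counts of 71 and 14 gave 1.06 CPM (95% exact Poisson interval 0.831 to 1.34) in control and 0.184 CPM (0.101 to 0.309) in Piezo1_KO, which covers counting error only.

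Adgre1 (chr17:57358691-57483527), the macrophage surface receptor F4/80, was at 0.402, 0.538 and 0 CPM in control (8, 18 and 0 counts) and 0.338, 0.933 and 0.342 CPM in Piezo1_KO (8, 27 and 8 counts). The groups overlapped, and the only library without an Adgre1 count was control replicate 3, the shallowest and the richest in Lyz2. Its 0 counts allow up to 0.225 CPM, below the measured value of every other library. Those values carry counting error too, and the lowest rest on 8 counts each, so a lower level in this library is not shown. Pooled, 26 control and 43 Piezo1_KO counts gave 0.390 CPM (95% exact Poisson interval 0.255 to 0.571) and 0.566 CPM (0.409 to 0.762), and the intervals overlap.

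C1qb and C1qc encode chains of C1q, the recognition part of complement that resident macrophages secrete, and lie 3.62 kb apart at chr4:136880129-136886187 and chr4:136889804-136893065. C1qb had 2, 17 and 0 counts in control replicates 1, 2 and 3 and 0, 4 and 0 counts in Piezo1_KO. C1qc had 0, 9 and 0 counts in control and 0, 5 and 0 counts in Piezo1_KO. Outside replicate 2, the deepest library of each group, the only C1q counts were the 2 of C1qb in control replicate 1. In replicate 2 the summed C1q level was 0.777 CPM in control against 0.311 CPM in Piezo1_KO. That Piezo1_KO library was also the highest Piezo1_KO library in Lyz2, Csf1r, Adgre1 and Cd68. Over the group, C1qb gave 0.285 CPM (95% exact Poisson interval 0.172 to 0.445) in control and 0.0526 CPM (0.0143 to 0.135) in Piezo1_KO, where the control value rests on replicate 2.

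Ly6g (chr15:75155240-75159126), the surface protein by which mouse neutrophils are identified, had 5, 4 and 0 counts in control and 2, 7 and 6 counts in Piezo1_KO. That is 0.252, 0.119 and 0 CPM against 0.0845, 0.242 and 0.256 CPM, and the groups overlapped. The pooled levels of 0.135 CPM (95% exact Poisson interval 0.0617 to 0.256) and 0.197 CPM (0.110 to 0.325) overlapped as well. Ly6g belongs to a family of similar genes on chromosome 15, so its few counts are uncertain.

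**Figure D4:**
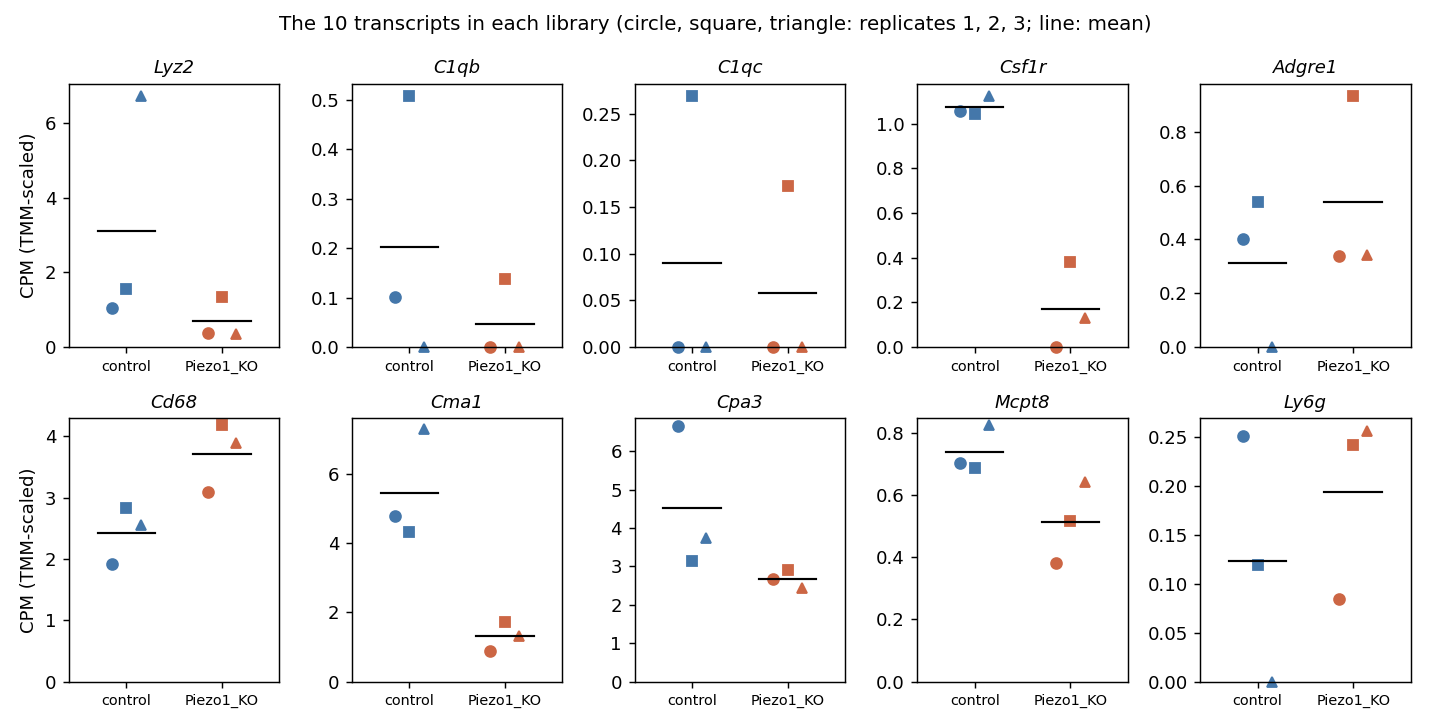
TMM-scaled CPM of each of the 10 transcripts in the 3 control (blue) and 3 Piezo1_KO (orange) libraries, with circle, square and triangle for replicates 1, 2 and 3, a line at the mean and a separate linear axis from 0 for each gene. The groups are apart for Csf1r, Cma1, Cpa3 and Mcpt8 (control higher) and for Cd68 (Piezo1_KO higher), and Lyz2 is set by control replicate 3.

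Of 36 listed macrophage and monocyte genes, 25 were in the table and 12 were tested, of which 0 rose and 0 fell in edgeR. At an unadjusted p under 0.05 there were 1 higher and 4 lower, beside 6.3% and 6.91% of all tested genes, and DESeq2 called 0. The 4 were Lyz2, Csf1r, Clec7a and Apoe (apolipoprotein E), none of which would have passed the count filter on Piezo1_KO libraries alone. They passed through control, where they are high, so their sign is no separate finding. With these 4 included, the median log2 fold change of the 12 was −0.46, against 0.018 over all tested genes. Of the 12, 9 were negative. The list was dominated by Ccr2, a chemokine receptor of monocytes, at 655 ± 82.3 CPM in control against 653 ± 12.6 CPM in Piezo1_KO (SD, n = 3), and by Ctss, the lysosomal protease cathepsin S, at 32.4 ± 1.98 and 41.2 ± 1.42 CPM. Summed over the list, the level was 625 to 756 CPM in control against 693 to 722 CPM in Piezo1_KO. Per length, Ccr2 was at 96.8 CPM per kb and Csf1r at 0.108 CPM per kb over the 6 libraries. The median of the 19 ILC2 genes was 106 CPM per kb, and which cells the Ccr2 counts came from was not tested. Spi1, the myeloid transcription factor PU.1, had 3, 5 and 1 counts in control and 1, 6 and 1 in Piezo1_KO. Clec7a, the beta-glucan receptor dectin-1, named after its values were seen, was at 1.21, 0.478 and 0.600 CPM in control against 0, 0.173 and 0.0427 CPM in Piezo1_KO (log2 fold change −3.22 ± 0.88, adjusted p = 0.152, edgeR).

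Lists of the other granulocytes had few measured genes. Of 18 listed neutrophil genes, 7 were in the table, all below 1 CPM on average, and the 1 tested was Clec4e, the receptor Mincle. Clec4e was at 0, 0.119 and 0.375 CPM in control against 1.10, 1.21 and 1.41 CPM in Piezo1_KO, a log2 fold change of 3.07 ± 0.78 that did not pass in edgeR (adjusted p = 0.130) and was called by DESeq2. Mmp9, the gelatinase of neutrophil granules, was at 0.411 ± 0.230 CPM in control against 0.171 ± 0.00184 CPM in Piezo1_KO (SD, n = 3). Clec4e passed the count filter only through Piezo1_KO, where it is high, so its sign is no separate finding either. With no filter Cxcr2, Mmp8, Mmp9 and Padi4 had log2 fold changes of −0.48, −0.74, −1.28 and −1.14. Clec4d and Ly6g went the other way, with 1.52 and 0.55. Clec4d had 4, 1 and 2 counts in control and 8, 8 and 10 in Piezo1_KO, without overlap in CPM. None of these genes was tested in the main comparison. Of 10 listed eosinophil genes 2 were in the table, and Ccr3, the eotaxin receptor, was at 4.92 ± 1.43 and 7.33 ± 0.631 CPM (SD, n = 3, log2 fold change 0.59 ± 0.25, adjusted p = 0.368, edgeR). The summed neutrophil level was 1.50 to 1.85 CPM in control against 2.07 to 2.73 CPM in Piezo1_KO, a difference that rests on Clec4e. Without Clec4e, left out after its values were seen, the sum was 1.12 to 1.73 CPM in control against 0.864 to 1.56 CPM in Piezo1_KO, and the groups overlapped.

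Other lists moved in both directions beside the 10 transcripts, and their part in the results was not tested. Over all tested genes, 1.51% passed in edgeR and 4.2% in DESeq2. At an unadjusted p under 0.05 (edgeR), 6.3% of all tested genes were higher and 6.91% lower. Of 5 tested dendritic cell genes 0 passed in edgeR, 1 had an unadjusted p under 0.05 and DESeq2 called 1, Ccr7, a chemokine receptor of lymph node homing that lymphocytes share. Of 5 tested T cell genes 0 passed, with 2 lower at an unadjusted p under 0.05 and 0 in DESeq2. Of 3 tested NK cell genes Tbx21, the transcription factor T-bet, fell. Tbx21 had 0 counts in every Piezo1_KO library and passed the count filter only through control, so its sign is no separate finding. Ighm, the immunoglobulin mu chain, rose among 2 tested B cell genes, and Hba-a1 and Hba-a2, which encode alpha globin, rose among 2 tested erythroid genes. Hba-a2, with 0 counts in every control library, passed the count filter only through Piezo1_KO, so the sign of Hba-a2 is no separate finding either. None of 2 tested epithelial, endothelial and stromal genes passed in edgeR or DESeq2, and 1 was higher at an unadjusted p under 0.05. The globin sum was 3.70 to 5.25 CPM in control against 26.7 to 31.3 CPM in Piezo1_KO. Its direction was opposite to that of the mast cell list sum, most of which was Kit. Of the 19 ILC2 genes 1 rose (Il17rb) and 2 fell (Il7r and Icos), with 8 higher and 5 lower at an unadjusted p under 0.05 and 3 higher and 3 lower in DESeq2. The Il7r call was lost without control replicate 1 (adjusted p = 0.0639, edgeR) and without Piezo1_KO replicate 1 (0.0526) or 2 (0.0630). Of the 12 alternative fits, the calls of Il17rb, Icos and Tbx21 were lost in 5 each, that of Hba-a2 in 3, that of Ighm in 1 and that of Hba-a1 in 0.

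The genes whose levels followed Cma1 most closely across the 6 libraries were Mycn, Gap43 and Zfp987, with root mean square distances of 0.329, 0.335 and 0.394 between centred log2 CPM profiles, among 12404 genes compared. Gap43, a growth-cone protein of neurons, was at 5.28, 5.71 and 7.65 CPM in control against 1.82, 2.11 and 2.39 CPM in Piezo1_KO and was itself called lower (adjusted p = 0.0274, edgeR), a call lost in 5 of 12 alternative fits. None of the nearest 3 is in the mast cell list, of which only Cpa3, Tpsb2, Kit, Hpgds and Mitf were abundant enough to be compared with Cma1. The genes nearest to Lyz2 were Cox6a2, a subunit of cytochrome c oxidase, Ccl6, a chemokine of macrophages and granulocytes, and Cma1, at distances of 0.494, 0.553 and 0.712. Ccl6 was at 0.805, 1.14 and 2.47 CPM in control against 0.254, 1.38 and 0.470 CPM in Piezo1_KO, with the same highest library as Lyz2 in each group. All these genes were chosen for likeness over the same 6 libraries. The Gap43 call and the shared highest libraries follow largely from that choice and are no separate findings.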

How the data were processed

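The table deposited by the authors gives estimated counts for each gene, some of them fractional and none scaled for depth. Its rows are the libraries, which were matched to samples by the description in the labels. Per the submitters' processing notes, reads were placed on mm10. Aligner, counter, annotation and strand setting: not given in the sources used here. RNA input was 10 ng per library, per the labels' protocols.

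Estimated counts were rounded, filtered with filterByExpr, scaled by TMM and tested with glmQLFTest in edgeR 4.0.16 (R 4.3.3), two-sided, without covariates, with Benjamini-Hochberg adjustment over 14149 genes tested. Standard errors are the absolute log2 fold change divided by the square root of F. CPM use the TMM factors for every gene of the table, tested or not. Alternatives were RLE size factors, no filter, a stricter filter (1 CPM throughout a group), a block for the replicate number, leaving out each library, DESeq2 1.42.0 and robust quasi-likelihood. The fit was tested on simulated counts.

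The 10 genes and 13 gene lists (166 genes, 95 in the table, 62 tested, and the others not analysed here) were chosen with earlier results of these data known. Genes named are the 10, up to 4 called members and the 2 highest of a list, and the 3 genes nearest to Cma1 and to Lyz2 by log2 CPM (prior count 2, mean CPM of at least 1, predicted genes left out). Other named genes were chosen after their values were seen, and not every gene the rule names is described. Exon lengths and gene positions are from GENCODE M21 on GRCm38 (mm10), for the 17579 symbols that occur there once. Upstream windows are from RefSeq, which held 1 or more windows for 8 of the 10.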

Additional observations from a re-analysis of the deposited data

How the results depend on the processing

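The call of Cma1 was kept with RLE size factors, with either other filter, in DESeq2, with robust quasi-likelihood and without control replicate 2, and lost in the other 6 of 12 fits. Leaving out 1 library gave 0 to 1 called transcripts, 22 to 209 genes higher and 10 to 92 genes lower. With the replicate number as a block the counts were 0, 37 and 15, and Cma1 had an adjusted p of 0.131 (edgeR). DESeq2 gave 353 higher and 241 lower against 142 and 72. The numbers share no stated source, and same-numbered libraries did not deviate together (correlations of −0.0227, −0.183 and −0.00752), so the block is a description. None of the other 5 tested transcripts passed or changed sign in any fit run. With no filter, the 4 untested transcripts had adjusted p of 0.642 to 0.907 (edgeR). RLE or plain CPM moved no library's macrophage sum by as much as the spread between replicates. Counts under 10 in most libraries limit C1qb, C1qc, Adgre1 and Ly6g.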
